A study of Mus musculus with 15 samples.

Results

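The PDGF family in this study comprised 6 genes taken by name from the 24421 gene symbols of the table. They were the ligand genes Pdgfa, Pdgfb, Pdgfc and Pdgfd and the receptor genes Pdgfra and Pdgfrb, and all 6 were among the 16752 genes expressed well enough to be tested. RNA was sequenced from whole kidneys of wild-type (WT) mice at day 14. The groups were unilateral ureteral obstruction on a diet with a Si-based agent (UUO_Si, n = 6), the same obstruction on a normal diet (UUO, n = 6) and a sham operation on a normal diet (sham, n = 3). Tying off the ureter of one side dams urine back into that kidney, whose tubules are then lost while scar tissue forms between them. No sham group on the Si-based diet was included, so UUO_Si differed from sham in both the operation and the diet. The labels give neither strain, sex and age nor whether kidneys were pooled, so p values measure only the spread between these samples.

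PDGFs are disulphide-linked dimers that bind and pair receptor tyrosine kinases on the cell surface. The alpha receptor (Pdgfra) binds the A, B and C chains, and the beta receptor (Pdgfrb) binds the B chain and the D chain. The A and B chains are cut by proprotein convertases inside the cell, whereas the C and D chains are secreted as latent factors that need a further cut outside it. In the kidney the receptors are carried by interstitial fibroblasts, pericytes, vascular smooth muscle and mesangial cells, and the ligands come from endothelium, tubule epithelium, platelets and macrophages. PDGF-B from endothelium recruits mesangial cells and pericytes during development, and cells bearing the receptors are a known source of matrix-producing myofibroblasts after obstruction.

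Of the 6 genes, 4 matched the RefSeq promoter table, namely the ligand gene that did not pass the test and 3 members that rose. Promoter windows are shown for these 4. Each runs from 250 bases before to 50 bases after an annotated RefSeq start on GRCm38.p6, 5′ to 3′ on the strand of the gene, with motif matches in capitals. The windows lie at chr3:81036166-81036465 (plus strand) for Pdgfc, chr5:138994895-138995194 (minus strand, the upstream one of the 2 Pdgfa starts listed) for Pdgfa, chr9:6168236-6168535 (plus strand) for Pdgfd and chr5:75152001-75152300 (plus strand) for Pdgfra.
Pdgfc: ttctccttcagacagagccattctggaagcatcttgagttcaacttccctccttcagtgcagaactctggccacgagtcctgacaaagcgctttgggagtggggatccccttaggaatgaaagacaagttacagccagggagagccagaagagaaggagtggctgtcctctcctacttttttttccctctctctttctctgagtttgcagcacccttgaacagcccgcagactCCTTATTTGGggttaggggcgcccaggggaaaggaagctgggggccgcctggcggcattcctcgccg
Pdgfa: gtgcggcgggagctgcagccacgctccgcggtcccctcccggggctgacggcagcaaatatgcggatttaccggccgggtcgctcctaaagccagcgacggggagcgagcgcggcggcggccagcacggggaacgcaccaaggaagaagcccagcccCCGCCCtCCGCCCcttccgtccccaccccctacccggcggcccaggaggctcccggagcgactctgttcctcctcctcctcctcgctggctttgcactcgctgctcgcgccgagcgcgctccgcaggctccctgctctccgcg
Pdgfd: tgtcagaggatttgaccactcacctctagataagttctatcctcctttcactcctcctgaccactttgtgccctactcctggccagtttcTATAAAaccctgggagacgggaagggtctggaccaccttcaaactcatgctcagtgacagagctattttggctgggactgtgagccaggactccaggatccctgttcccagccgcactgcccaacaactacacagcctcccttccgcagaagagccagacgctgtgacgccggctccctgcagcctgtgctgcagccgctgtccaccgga
Pdgfra: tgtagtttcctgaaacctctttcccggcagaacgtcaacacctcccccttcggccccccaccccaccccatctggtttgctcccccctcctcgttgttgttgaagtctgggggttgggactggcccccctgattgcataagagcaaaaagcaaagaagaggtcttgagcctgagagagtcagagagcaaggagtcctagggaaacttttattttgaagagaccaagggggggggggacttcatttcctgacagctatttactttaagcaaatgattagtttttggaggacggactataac
Both strands were searched for the GC box GGGCGG, the TATA box TATAAA, the CCAAT box, the AP-1 site TGANTCA and the CArG box, to which serum response factor binds. The Pdgfc window held a CArG box starting at -17 relative to the start, a motif found in 1.6% of 32851 mouse promoter windows of the same length. The Pdgfa window held 2 GC boxes on the other strand at -93 and -86, which did not overlap each other, and 35.7% of all windows held that motif. The Pdgfd window held TATAAA at -160 (13.6% of all windows), and the Pdgfra window held none of the motifs, of which CCAAT was in 37.4% and AP-1 in 7.8% of all windows. The G and C content of the windows was 73.3% for Pdgfa, 56.7% for Pdgfd, 55.0% for Pdgfc and 51.0% for Pdgfra, against a median of 52.7% over all windows.

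The genes lie on 5 chromosomes of GRCm38 (GENCODE M21). Pdgfa (ENSMUSG00000025856.15) lies at chr5:138976014-138997370 on the minus strand and Pdgfb (ENSMUSG00000000489.7) at chr15:79995874-80014977 on the minus strand. Pdgfc (ENSMUSG00000028019.9) lies at chr3:81036416-81214040 and Pdgfd (ENSMUSG00000032006.15) at chr9:6168584-6378850, both on the plus strand. Pdgfra (ENSMUSG00000029231.15) lies at chr5:75152292-75198215 and Pdgfrb (ENSMUSG00000024620.11) at chr18:61045150-61085061, both on the plus strand. The labels do not say whether counting used the strand, so a member cannot be told apart from a gene opposite to it. Ddi1, which lies opposite to Pdgfd, had 1 to 58 counts per library, against 103 to 547 for Pdgfd itself. Mir7025 lies within Pdgfra and had at most 29.5 counts, against at least 604.5 for Pdgfra, and the 7 libraries with a fractional Pdgfra count were those with a fractional Mir7025 count.

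In units of 1000000 counts, libraries held 7.75 to 11.5 in UUO_Si, 11.2 to 15.4 in UUO and 5.53 to 8.31 in sham. Levels are in CPM, counts scaled to a library of 1000000 with TMM factors, with the SD. In 4 libraries (UUO_Si replicate 6, UUO replicates 5 and 6 and sham replicate 3) 834 to 1287 of 1463 olfactory and vomeronasal receptor genes were detected, against 102 to 169 in the other 11. The sample codes RM1 (sham), RM3 and RM6 (UUO) and RM4 and RM7 (UUO_Si) each belonged to a single group, so code and group cannot be told apart.

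Obstruction on the normal diet was accompanied by higher transcripts of 3 of the 4 ligand genes and of both receptor genes. Pdgfrb was 4.69-fold, Pdgfra 3.74-fold, Pdgfb 2.65-fold, Pdgfa 2.39-fold and Pdgfd 1.79-fold the sham level, and Pdgfc did not pass the test. Thus 5 of 6 members were called higher by edgeR's quasi-likelihood test at a Benjamini-Hochberg adjusted p under 0.05, and none lower. Of all genes tested 53.9% were called in this comparison, 27.5% higher and 26.4% lower. In the same 5 genes every UUO library lay above every sham library, as was the case for 24.6% of all genes. The median log2 fold change was 1.33 over the members and -0.04 over all genes. Without the 4 libraries with many olfactory and vomeronasal receptor genes the 5 calls against sham stood. The log2 fold changes in UUO were then 2.22 for Pdgfrb, 2.03 for Pdgfra, 1.26 for Pdgfb, 1.26 for Pdgfa and 0.84 for Pdgfd. That check left out sham replicate 3 and UUO replicates 5 and 6, so it rests on fewer libraries in both groups. In bulk samples, fewer cells of a type and less RNA per cell cannot be told apart, and neither can more cells and more RNA per cell.

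**Figure D1:**
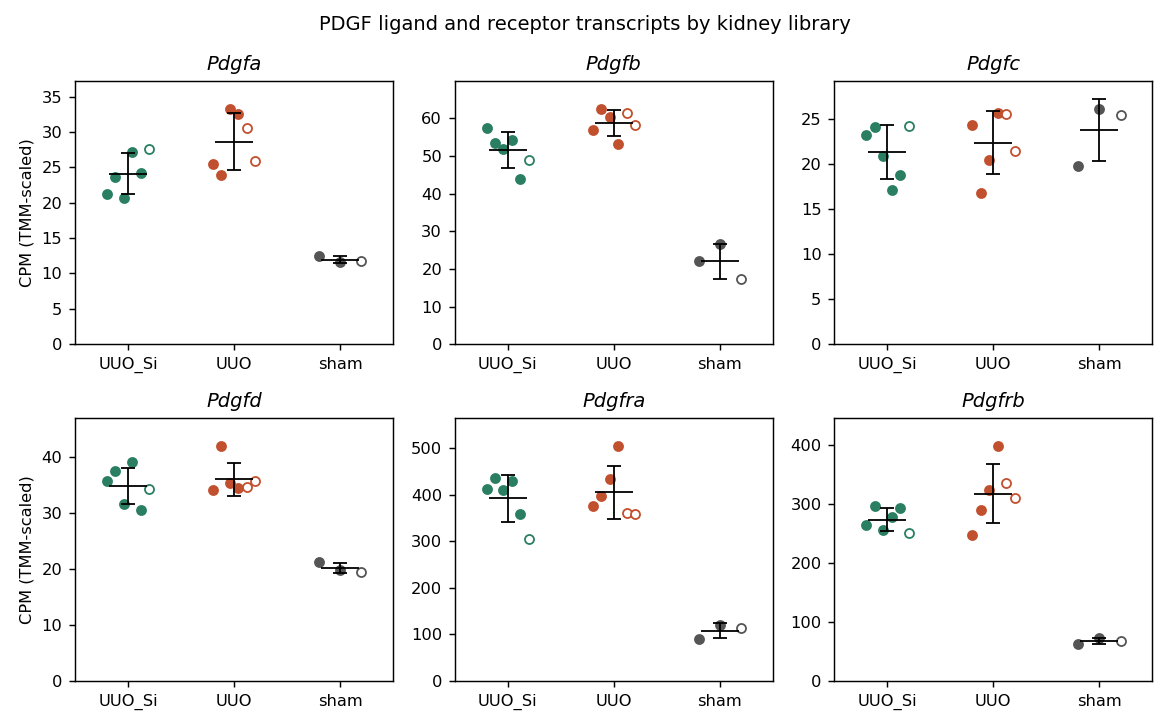
Level of each PDGF ligand and receptor transcript in each of the 15 kidney libraries, in CPM on the TMM-scaled library size. Points are libraries, horizontal lines and bars are the mean and SD of a group (n = 6, 6 and 3), and open points are the 4 libraries with counts in most olfactory and vomeronasal receptor genes. UUO_Si and UUO libraries lie above all sham libraries in each panel except that of Pdgfc, where the groups overlap.

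Pdgfa encodes the A chain, which signals through the alpha receptor. Its lowest, median and highest levels were 20.6, 23.9 and 27.6 CPM in UUO_Si and 23.9, 28.2 and 33.2 CPM in UUO, against 12.5, 11.7 and 11.7 CPM in sham replicates 1, 2 and 3. All 12 obstructed kidneys lay above all sham kidneys, while UUO_Si and UUO overlapped. Against sham, the log2 fold change was 1.26 ± 0.14 (SE) in UUO (adjusted p = 1.2e-06) and 1.01 ± 0.14 in UUO_Si (adjusted p = 1.56e-05).

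Pdgfb encodes the B chain, the ligand bound by both receptors. Its lowest, median and highest levels were 43.8, 52.6 and 57.4 CPM in UUO_Si and 53.1, 59.1 and 62.4 CPM in UUO, against 22.1, 26.7 and 17.4 CPM in sham replicates 1, 2 and 3. No obstructed kidney reached down to the sham range, and UUO_Si again overlapped with UUO. Against sham, the log2 fold change was 1.41 ± 0.12 (SE) in UUO (adjusted p = 5.82e-08) and 1.22 ± 0.12 in UUO_Si (adjusted p = 3.19e-07). Levels of different genes were set side by side in CPM per kilobase of exon, but their order can depend on the gene length taken. On this scale Pdgfb had the highest mean of the ligands in obstructed kidneys, 12.4 ± 1.14 in UUO_Si and 14.1 ± 0.819 in UUO. The same held with the longest coding transcript as length, at 17.5 ± 1.61 in UUO_Si and 19.9 ± 1.16 in UUO.

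Pdgfc encodes the C chain, a latent ligand of the alpha receptor. Its lowest, median and highest levels were 17.1, 22.0 and 24.2 CPM in UUO_Si and 16.7, 22.9 and 25.6 CPM in UUO, against 19.8, 26.1 and 25.4 CPM in sham replicates 1, 2 and 3. The 3 groups overlapped. The log2 fold change was -0.08 ± 0.16 (SE) in UUO against sham (95% interval -0.41 to 0.25, adjusted p = 0.675) and -0.15 ± 0.16 in UUO_Si against sham (95% interval -0.48 to 0.18, adjusted p = 0.444). Per kilobase of exon Pdgfc averaged 4.19 ± 0.587 CPM in UUO_Si and 4.39 ± 0.689 CPM in UUO, the lowest of the ligands there with either gene length, against 4.66 ± 0.678 CPM in sham. The intervals exclude changes as large as those of the other 3 ligands, but the difference between the genes was not tested, and Pdgfc failing the test does not show that its level was the same.

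Pdgfd encodes the D chain, a latent ligand of the beta receptor. Its lowest, median and highest levels were 30.7, 35.1 and 39.1 CPM in UUO_Si and 34.2, 35.0 and 42.0 CPM in UUO, against 21.2, 19.8 and 19.5 CPM in sham replicates 1, 2 and 3. Every obstructed kidney was above the sham kidneys, and the diets overlapped, with 2 of 6 UUO_Si kidneys below all UUO kidneys. That number was 3 for Pdgfa and for Pdgfb, 2 for Pdgfra and 0 for Pdgfc and Pdgfrb. Against sham, the log2 fold change of Pdgfd was 0.84 ± 0.11 (SE) in UUO (adjusted p = 4.07e-06) and 0.79 ± 0.11 in UUO_Si (adjusted p = 9.04e-06), the smallest of the ligand changes that passed.

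The make-up of the ligand pool was described from the levels per kilobase. Summed over the 4 ligands the level was 35.4 ± 2.34 CPM per kilobase in UUO_Si and 39.1 ± 1.27 in UUO, against 20.2 ± 1.24 in sham. The share of Pdgfc in this sum was 11.9 ± 1.53% in UUO_Si and 11.2 ± 1.80% in UUO, against 23.1 ± 3.33% in sham, with no overlap between obstructed and sham kidneys. The share of Pdgfb was 32.4% to 37.8% in UUO_Si and 32.6% to 38.2% in UUO, against 21.9% to 29.8% in sham. Pdgfd held 31.2%, 29.3% and 31.8% in UUO_Si, UUO and sham, and Pdgfa 21.9%, 23.4% and 19.0% in the same order. These shares restate the levels above and were not tested apart. With the longest coding transcript as length, the Pdgfc share was 13.1 ± 1.66% in UUO_Si, 12.3 ± 1.90% in UUO and 25.5 ± 3.59% in sham. With that length Pdgfa held 25.2%, 26.8% and 22.0% in UUO_Si, UUO and sham, and Pdgfd 24.0%, 22.3% and 24.4%. The highest ligand in sham was then Pdgfb (28.1%) and not Pdgfd. So the order of Pdgfa and Pdgfd in obstructed kidneys, and the highest ligand in sham, depend on the length taken.

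**Figure D2:**
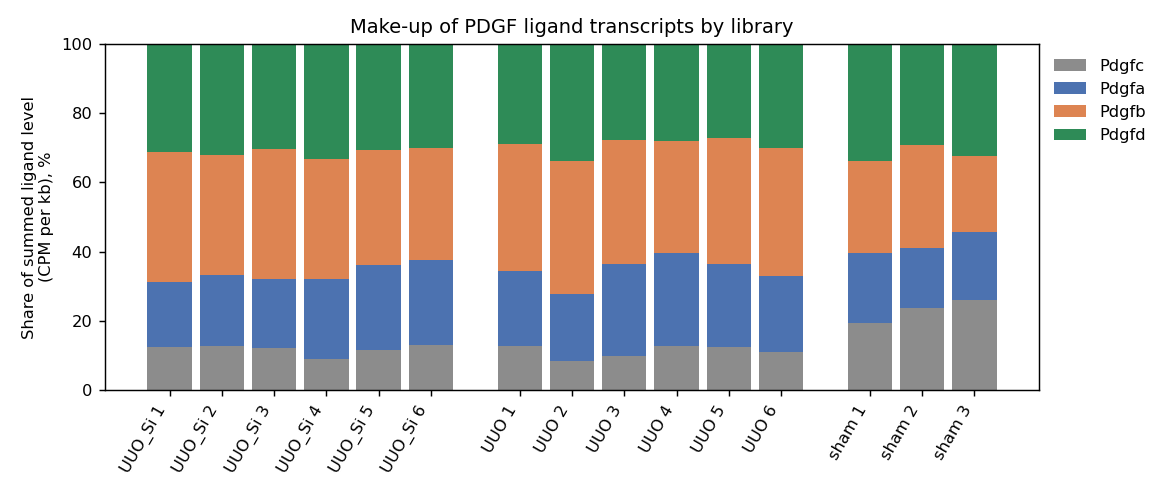
Share of each ligand gene in the summed ligand level (CPM per kilobase of exon, in percent) in each of the 15 kidney libraries, as stacked bars. Pdgfc makes up 8.94% to 13.1% of the sum in UUO_Si and 8.36% to 12.9% in UUO, against 19.5% to 26.1% in sham.

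Pdgfra encodes the alpha receptor, which in the adult kidney marks interstitial fibroblasts. Its lowest, median and highest levels were 306, 411 and 436 CPM in UUO_Si and 358, 386 and 505 CPM in UUO, against 89.8, 120.3 and 114 CPM in sham replicates 1, 2 and 3. The obstructed kidneys all lay far above the sham kidneys and overlapped between diets. Against sham, the log2 fold change was 1.90 ± 0.15 (SE) in UUO (adjusted p = 1.52e-08) and 1.86 ± 0.15 in UUO_Si (adjusted p = 2.36e-08). Of all genes tested, 93.9% had a lower log2 fold change in UUO against sham than Pdgfra.

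Pdgfrb encodes the beta receptor, the marker of pericytes, mesangial cells and their interstitial relatives. Its lowest, median and highest levels were 249.7, 271 and 296 CPM in UUO_Si and 246, 316 and 398 CPM in UUO, against 62.5, 73.2 and 67.3 CPM in sham replicates 1, 2 and 3. Sham and obstructed kidneys did not overlap, while the UUO_Si range lay within that of UUO. Against sham, the log2 fold change was 2.23 ± 0.14 (SE) in UUO (adjusted p = 9.46e-10) and 2.01 ± 0.13 in UUO_Si (adjusted p = 2.96e-09). This was the largest change of the 6 members in both comparisons with sham, and 95.7% of all genes had a lower log2 fold change in UUO against sham.

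Per kilobase of exon, both receptor genes had a higher mean level than each ligand gene in all 3 groups. Summed over both receptors the level was 88.9 ± 7.27 CPM per kilobase in UUO_Si and 98.3 ± 13.8 in UUO, against 23.1 ± 2.55 in sham. Per kilobase of exon union Pdgfrb exceeded Pdgfra in 15 of 15 libraries (ratio 1.07 to 1.70), but with the longest coding transcript as length it did so in 4 of 15 (ratio 0.740 to 1.17), so the order of the receptor levels depends on the length taken. The ratio of Pdgfrb to Pdgfra counts, which needs no length to be compared between groups, was 0.705 ± 0.0899 in UUO_Si, 0.786 ± 0.0980 in UUO and 0.630 ± 0.0573 in sham. In log2 units the mean difference was 0.31 for UUO against sham, with a two-sided exact permutation p = 0.0476 and p = 0.143 after Benjamini-Hochberg adjustment over the 3 comparisons. The corresponding values were -0.16 for UUO_Si against UUO (exact permutation p = 0.156, adjusted p = 0.226) and 0.16 for UUO_Si against sham (exact permutation p = 0.226, adjusted p = 0.226), so no ratio passed. With single libraries left out, the UUO against sham difference was 0.26 to 0.39 and its unadjusted p no longer lay under 0.05 in 8 of 9 cases. It was 0.16 without the 4 libraries with many olfactory and vomeronasal receptor genes. Within the UUO group the ratio was 0.656 to 0.788 in the 4 libraries coded RM3 and 0.863 to 0.929 in the 2 coded RM6, which were also those with counts in most olfactory and vomeronasal receptor genes.

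**Figure D3:**
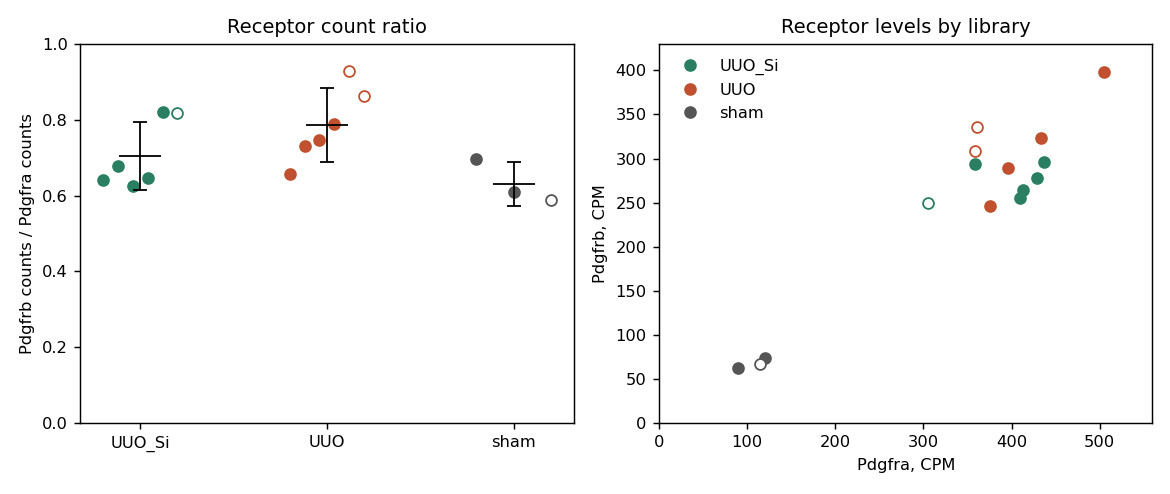
Left, ratio of Pdgfrb to Pdgfra counts in each library, with the mean and SD of each group (UUO_Si and UUO n = 6, sham n = 3). Right, Pdgfrb against Pdgfra level in CPM for the same 15 libraries. Open points are the 4 libraries with counts in most olfactory and vomeronasal receptor genes. The 2 open points of UUO have the highest ratios, 0.863 and 0.929, and the sham libraries lie apart at the low end of both levels.

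The effect of the diet was asked by setting UUO_Si against UUO. None of the 6 members was called, and none had groups without overlap. Over all genes edgeR called 0 (0%), with 626 genes (3.74%) at an unadjusted p under 0.05 and 34 (0.203%) without overlap. DESeq2 called 2 genes, neither of them a member, with 686 at an unadjusted p under 0.05, and limma-voom called 0 with 1389. All 6 members had log2 fold changes below 0, as had 49.7% of all genes, with a median of -0.13 against 0.00 over all genes.

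Pdgfa, Pdgfrb and Pdgfb had the values farthest below 0, but none passed adjustment (edgeR, adjusted p = 0.999 for each of the 6). Pdgfa averaged 24.1 ± 2.88 CPM in UUO_Si and 28.6 ± 3.99 CPM in UUO, a log2 fold change of -0.25 ± 0.11 (95% interval -0.47 to -0.03, unadjusted p = 0.0309 from the fit over all genes with edgeR). Pdgfrb averaged 273 ± 19.4 CPM in UUO_Si and 317 ± 50.4 CPM in UUO, a log2 fold change of -0.22 ± 0.10 (95% interval -0.42 to -0.01, unadjusted p = 0.0403). In both genes, and in Pdgfb, each of the 6 UUO_Si libraries lay below the UUO mean, but the share of all genes with this pattern was not counted. With single libraries left out, the Pdgfrb log2 fold change was -0.27 to -0.14, the latter without UUO replicate 4. Pdgfb averaged 51.6 ± 4.73 CPM in UUO_Si and 58.7 ± 3.41 CPM in UUO, with a 95% interval of -0.38 to 0.01. The intervals were -0.33 to 0.20 for Pdgfc, -0.22 to 0.12 for Pdgfd and -0.28 to 0.19 for Pdgfra, so larger differences between the diets in these genes were outside the intervals in either direction. For each of the 5 members called against sham the UUO_Si mean lay below that of UUO and above that of sham, with UUO_Si and UUO not differing beyond their spread by the adjusted test. As the 2 diets share their sham controls, the comparisons with sham are given side by side only. Against sham, UUO_Si also had 5 of 6 members called higher, with 52.7% of all genes called, 27.2% higher, and 24.0% higher without overlap.

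**Figure D4:**
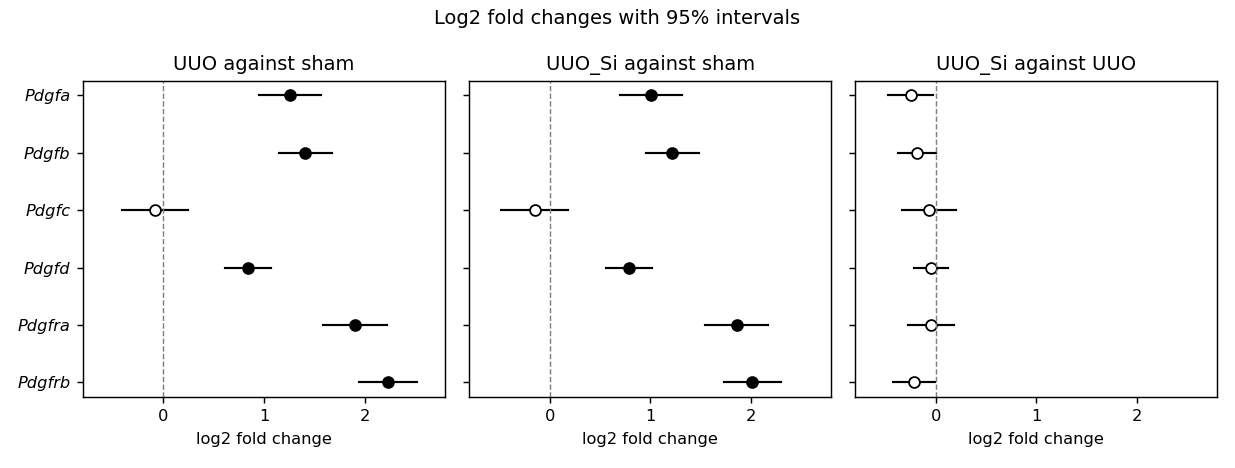
Log2 fold change of each member with its 95% interval from the edgeR fit, for UUO against sham, UUO_Si against sham and UUO_Si against UUO. Filled points have an adjusted p under 0.05 and open points do not. In both comparisons with sham the intervals of 5 members lie above 0 and that of Pdgfc spans 0, and for UUO_Si against UUO all points lie between -0.25 and -0.05.

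Genes that process, bind or hold PDGFs were followed as a list of 13, all tested. For this list and those below, the shares over all genes tested were 27.5% higher and 26.4% lower in UUO against sham, with a median of -0.04. Against sham, 7 of the 13 rose and 4 fell in UUO, with a median log2 fold change of 0.96, and the same counts were found for UUO_Si. Those that rose included Sparc, a matrix protein that binds the B chain, at 1267 ± 342 CPM in UUO against 156 ± 15.3 CPM in sham (log2 fold change 3.03 ± 0.22, adjusted p = 6.95e-09, edgeR). Lrp1, an endocytic receptor that associates with the beta receptor, averaged 1041 ± 213 CPM in UUO and 240.0 ± 9.47 CPM in sham (2.12 ± 0.17). The co-receptor Nrp1 changed by 0.97 ± 0.09 and St14, the matriptase that can cut the D chain, by 0.96 ± 0.12. All 3 convertases of the list were lower in UUO, with log2 fold changes of -1.07 ± 0.14 for Pcsk5, -0.87 ± 0.11 for Pcsk7 and -0.61 ± 0.10 for Furin. Plau, the urokinase that can cut the D chain, fell to 479 ± 25.1 CPM in UUO, against 775 ± 57.8 CPM in sham. Plat, the tissue plasminogen activator that cuts the C chain, was not called, at 152 ± 11.7 CPM in UUO and 137 ± 14.1 CPM in sham. Between the diets none was called, and 9 of 13 lay below 0. Pdgfrl, a receptor-like gene without a kinase domain, averaged 6.85 ± 1.06 CPM over the UUO_Si libraries and 12.9 ± 5.57 CPM over the UUO libraries (log2 fold change -0.91 ± 0.27, adjusted p = 0.999, edgeR). Sparc and Pcsk5 lay at -0.35 and -0.28, with the same adjusted p.

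Of 29 genes that act at or just below the receptors, 18 rose and 7 fell in UUO against sham, with a median of 0.41. Among those of smallest p were the adaptor Shc1 (log2 fold change 1.11 ± 0.11), the kinase Mapk3 (1.16 ± 0.12) and the adaptor Grb7 (-1.12 ± 0.12). Shc1 averaged 95.4 ± 10.4 CPM in UUO and 44.1 ± 6.59 CPM in sham. The count of those that fell was 3 without sham replicate 1 and 4 without sham replicate 2. Between the diets none was called, 11 lay below 0 and the median was 0.02. Fyn, a Src-family kinase, was at -0.18 ± 0.08 (adjusted p = 0.999, edgeR).

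Of 15 genes that switch the receptors off or feed back on them, 7 rose and 2 fell in UUO, with a median of 0.15. Spry1, a feedback inhibitor of receptor tyrosine kinase signalling, averaged 73.1 ± 4.19 CPM in UUO and 33.2 ± 3.22 CPM in sham (log2 fold change 1.14 ± 0.12). The phosphatases Ptprj (0.83 ± 0.09) and Ptpn12 (0.76 ± 0.12) were higher as well. Slc9a3r1, a scaffold that binds the tail of the beta receptor and is abundant in the tubule brush border, fell to 108 ± 14.5 CPM in UUO, against 326 ± 28.9 CPM in sham. Between the diets none was called and 9 of 15 lay below 0, with Slc9a3r2 at -0.27 ± 0.11 and Spry1 at -0.20 ± 0.09 (adjusted p = 0.999 for each, edgeR).

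Genes that PDGF is known to induce in cultured mouse fibroblasts formed a list of 17, of which other stimuli induce many as well. In UUO 11 rose and 1 fell against sham (median 1.29), and in UUO_Si 9 rose and 1 fell (median 1.16). The chemokine Cxcl1 averaged 16.1 ± 5.03 CPM in UUO and 0.487 ± 0.145 CPM in sham. The transcription factors Junb, Jun and Myc changed by 1.91 ± 0.19, 1.38 ± 0.16 and 1.29 ± 0.15, and the member that fell was the cyclin gene Ccnd1 (-0.86 ± 0.14). Between the diets none was called and 13 of 17 lay below 0. Junb averaged 68.9 ± 6.81 CPM in UUO_Si and 91.3 ± 15.8 CPM in UUO (log2 fold change -0.41 ± 0.14, adjusted p = 0.999, edgeR), and Fos 10.7 ± 2.77 CPM in UUO_Si and 18.8 ± 13.3 CPM in UUO.

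The related VEGF ligands and the receptors of the same classes gave 8 higher and 3 lower of 15 in UUO against sham (median 0.42). Csf1r, the macrophage colony-stimulating factor receptor, averaged 200.2 ± 7.84 CPM in UUO and 72.2 ± 7.11 CPM in sham (log2 fold change 1.47 ± 0.09). Its ligand genes Csf1 and Il34 changed by 1.90 ± 0.18 and 1.87 ± 0.19. Vegfa, the main endothelial growth factor of the nephron, fell to 152 ± 32.8 CPM in UUO, against 635 ± 139.6 CPM in sham. None was called between the diets, and 10 of 15 lay below 0.

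Markers of several cell types, among them fibroblasts, pericytes, macrophages and urothelium, were higher in the obstructed groups than in sham, as were the 5 members. The part of these markers in the results was not tested. In UUO against sham 9 of 10 fibroblast markers rose and none fell, and their summed level was 3116 to 4627 CPM in UUO_Si and 3680 to 7586 CPM in UUO, against 153 to 250.4 CPM in sham. Of 7 pericyte markers 4 rose and none fell, with sums of 249 to 319.6 CPM in UUO_Si and 300.5 to 389.6 CPM in UUO, against 186 to 235 CPM in sham. Smooth muscle markers gave 4 higher and 1 lower of 7 (2 higher without the 4 libraries named above, 0 lower without sham replicate 2). In UUO_Si against sham 2 of these 7 were higher and 2 lower. Smooth muscle sums overlapped between the groups, at 604 to 811 CPM in UUO_Si, 782 to 1462 CPM in UUO and 583 to 1076 CPM in sham. Mesangial and juxtaglomerular markers gave 2 higher of 4 (1 without sham replicate 1 or 3 or UUO replicate 4, 5 or 6). All 9 macrophage markers rose, with sums of 848 to 1307 CPM in UUO_Si and 924 to 1234 CPM in UUO, against 64.7 to 157 CPM in sham. Endothelial markers gave 3 higher and 3 lower of 9, with sums of 842 to 1023 CPM in UUO_Si and 782 to 1194 CPM in UUO, against 832 to 1026 CPM in sham. Podocyte markers gave 2 higher and 2 lower of 7, and platelet markers 2 higher and 2 lower of the 4 tested, and in these lists counts of 1 were found without single sham or UUO libraries. Over all genes tested, 27.5% were called higher and 26.4% lower in UUO against sham. All 6 urothelial markers rose, while all 6 proximal tubule, all 6 loop and distal tubule and all 6 collecting duct markers fell. Between the diets none of these markers was called, and 10 of 10 fibroblast, 7 of 7 pericyte and 7 of 7 smooth muscle markers lay below 0, with medians of -0.52, -0.21 and -0.83. So did 8 of 9 macrophage, 7 of 9 endothelial, 5 of 7 podocyte and 5 of 6 urothelial markers, against 49.7% of all genes. The mesangial and juxtaglomerular list and the platelet list each had 2 of 4 below 0. Above 0 lay 4 of 6 proximal tubule, 5 of 6 loop and distal tubule and 5 of 6 collecting duct markers. No marker was at 0 in all libraries of a group.

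Across the 12 obstructed kidneys, none of the 15 pairs of members was correlated after adjustment. The smallest Pearson p was that of Pdgfa and Pdgfrb, with r = 0.68 (permutation p = 0.0142, adjusted p = 0.213) and Spearman rho = 0.53 (permutation p = 0.0796, adjusted p = 0.597). Without UUO replicates 3 and 4, the libraries farthest from the median of Pdgfa, r was 0.43, and it was 0.07 within UUO_Si and 0.75 within UUO. The smallest Spearman p was that of Pdgfb and Pdgfd, with rho = 0.63 (permutation p = 0.0316, adjusted p = 0.474). Their Pearson r was 0.63 (permutation p = 0.0295, adjusted p = 0.221), with 0.72 within UUO_Si and 0.57 within UUO. It was 0.41 without UUO_Si replicates 5 and 6. For Pdgfra and Pdgfrb r was 0.52 (permutation p = 0.0825, adjusted p = 0.412) and rho 0.36 (permutation p = 0.254, adjusted p = 0.713). For this pair r was 0.44 within UUO_Si and 0.65 within UUO. It was -0.17 without UUO_Si replicate 6 and UUO replicate 4, the libraries farthest from the median of Pdgfra.

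The genes whose log2 levels were most like each member over the same 12 libraries were sought among 12335 genes of at least 5 CPM, as a description with no test. For Pdgfrb they were Col6a3 (r = 0.96), a collagen VI chain, Ehd2 (0.94), an ATPase of caveolae, and Actn1 (0.92), an actin cross-linker. For Pdgfra they were the row of the microRNA gene Mir6367, the sodium channel gene Scn7a and Trp53i11, each at 0.90. Pdgfc was most like Set (0.93), Metap2 (0.92) and Mtap (0.92), Pdgfa like Git1 (0.89), Cdh13 (0.87) and Nubp1 (0.87), Pdgfb like Irx5 (0.88), Acad8 (0.79) and Bcl7c (0.78), and Pdgfd like Muc19 (0.85), Plch1 (0.84) and Faap20 (0.81). These libraries share depth differences, and the highest of so many correlations are high by selection. Within single diets r of the named genes varied more. It ran from 0.23 (Bcl7c with Pdgfb within UUO) to 0.996 (Plch1 with Pdgfd within UUO_Si). Col6a3, the closest gene of all, had log2 fold changes of 2.57 ± 0.25 in UUO against sham (adjusted p = 1.93e-07, edgeR) and -0.63 ± 0.18 in UUO_Si against UUO (adjusted p = 0.999).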

How the data were processed

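RNA-seq of mouse kidney was given as a table of 15 libraries in 3 groups, read from the labels. The authors deposited unnormalised values that were treated here as estimated counts, because in each library 79.0% to 83.0% were whole and totals differed, at 5.53 to 15.4 in units of 1000000 counts. They were rounded and used as counts. Per the labels, libraries came from total RNA with a stranded Pico kit, and per the submitters' processing notes mm10, TopHat2 2.1.1 and Cuffdiff 2.2.1 were used, without saying how counting was done or whether it used the strand.

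Genes kept by edgeR's filter (minimum count 10) were fitted together, with TMM scaling and a mean per group, by the quasi-likelihood test of edgeR 4.0.16 (robust, R 4.3.3). P values were adjusted (Benjamini-Hochberg) over 16752 genes, with calls at 0.05. The SE is the absolute log2 fold change over the square root of F. Log2 levels used a prior count of 2. Correlations used 100000 permutations. Of the symbols, 95.7% matched GENCODE M21 (GRCm38), which gave positions and exon lengths, and 4 of 6 members matched the RefSeq promoter table. DESeq2 1.42.0, limma-voom (limma 3.58.1), other scalings and filters, a replicate block and left-out libraries were alternatives. Steps were tested on simulated data.

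The members and the 5 pathway and 12 marker lists were chosen with earlier results of these data known. From each pathway list, up to 4 genes of smallest p in UUO against sham and up to 3 with unadjusted p under 0.05 in UUO_Si against UUO were named. A result for 1 such gene is not reported here. The other list genes named (Plat, Plau, the convertases, Ccnd1) were chosen after their values were seen. All sample columns were used and no 2 libraries were copies.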

Additional observations from a re-analysis of the deposited data

Results flagged for a closer look

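Of 22 sets of 6 libraries examined for a single library apart from the rest, 2 were marked, where chance marks about 1 in 20. Pdgfd was at 42.0 CPM in UUO replicate 2, against 34.2 to 35.8 CPM in the other UUO libraries. The same library had the most Ddi1 counts (58), the gene opposite to Pdgfd, and the part of this in the Pdgfd value was not tested. Without it Pdgfd was still called against sham, at a log2 fold change of 0.79. The share of Pdgfc in the summed ligand level was 8.94% in UUO_Si replicate 4, against 11.6% to 13.1% in the other UUO_Si libraries.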

How the results depend on the processing

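The 5 member calls against sham stood under every alternative run, with log2 fold changes in UUO of 1.15 to 1.32 for Pdgfa, 1.26 to 1.58 for Pdgfb, 0.79 to 0.91 for Pdgfd, 1.80 to 2.03 for Pdgfra and 2.15 to 2.30 for Pdgfrb (largest adjusted p = 7.81e-05). No member was called between UUO_Si and UUO under any of them. With single libraries left out, Pdgfc in UUO against sham was -0.19 to 0.0047, above 0 without sham replicate 2. Pdgfra in UUO_Si against UUO was -0.084 to 0.026, above 0 without UUO replicate 4 (0.026) and without UUO_Si replicate 6 (0.015). DESeq2 called 2 genes between the diets, Phlda1 (-0.61) and Sfrp4 (-1.73). The log2 ratio of Pdgfrb to Pdgfra in UUO against sham was 0.26 to 0.39 with single libraries left out, and in 8 of 9 such cases its exact permutation p no longer lay under 0.05. It was 0.16 without the 4 libraries with counts in most olfactory and vomeronasal receptor genes and 0.21 without codes RM6 and RM7, both chosen after seeing the data. Genes called in UUO against sham numbered 7719 to 9114 with single libraries left out. The cause of these shifts was not tested.

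The labels do not say that replicate numbers pair the samples. Over 12 pairs with the same number the correlation of deviations was -0.39 to 0.75, and in 6 of the 12 it was over 0.1. The highest, 0.75, was that of UUO replicate 6 and UUO_Si replicate 6, and the next highest was 0.19. Both libraries of the highest pair had counts in most olfactory and vomeronasal receptor genes. Pairs with different numbers were not set beside those with the same number, so these values cannot show whether the numbers pair. With the replicate number as a block, the same 5 members were called in UUO against sham (Pdgfrb 2.15 ± 0.13, adjusted p = 2.23e-08, edgeR), and the genes called were 8433, against 9036 without it. The sham group of 3 libraries, at 5.53 to 8.31 in units of 1000000 counts, limits the precision of every comparison with sham.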
